A study of Mus musculus with 6 samples.

Results

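Splenic B cells of mice that lack the tetraspanin CD37 were examined for 10 genes that encode inhibitory receptors of B cells and the phosphatases acting below them, out of 19935 genes measured. The 10 are the sialic acid receptors Siglecg and Cd22, the other inhibitory receptors Fcgr2b, Cd72, Pirb, Lair1 and Cd5, and the phosphatases Ptpn6, Inpp5d and Ptpn22. They were chosen by gene family, with the difference between the genotypes already known, and each is represented by its brightest probe set that names no other gene. The comparison is of 3 CD37KO mice, which are Cd37-deficient (Cd37 -/-), with 3 wild-type (WT) littermates. All are labelled as 3 months old, while the study's methods give a later age and a C57BL/6J background. Each mouse was measured once on an Affymetrix mouse gene array, and values are log2 expression levels after robust multi-array averaging (RMA), in which 1 unit is a doubling of signal. Cd37 is lacking throughout the CD37KO animals and not in B cells alone. The cells came from the spleen by removal of cells carrying CD43, with B220 staining used only to assess purity.

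An inhibitory receptor of a B cell carries tyrosine motifs in its cytoplasmic tail, known as ITIMs, which are phosphorylated by the kinase Lyn once the receptor is brought close to a stimulated B cell receptor. The phosphorylated motifs dock SHP-1, a tyrosine phosphatase encoded by Ptpn6, or SHIP-1, a lipid phosphatase encoded by Inpp5d, and these enzymes remove phosphate groups from the proteins and lipids that carry the activating signal. In B cells this restrains calcium flux, proliferation and antibody responses, and loss of several of these genes in mice is known to cause autoimmunity.

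In CD37KO B cells 1 of the 10 genes, Siglecg, was lower with an adjusted p below 0.05 by limma, while 0.0301% of all genes tested passed in that direction. Its signal fell by 31.6%, and it was also the 1 gene of the 10 whose groups did not overlap, which held for 11.9% of all genes. Pirb, a receptor for MHC class I, made 2 of the 10 at an unadjusted p under 0.05, beside 5.95% of all genes, and its value was higher in CD37KO cells without passing the adjustment. With the Siglecg result known before the genes were chosen, nothing is read from these counts. The remaining receptors and the phosphatases had differences between -0.053 and 0.089, with adjusted p-values of 0.828 to 0.985 from limma.

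The sequences before the start sites of Siglecg, Cd22 and Pirb are shown because these are both Siglecs and the gene with the largest positive difference among the 10, and all 3 lie on chromosome 7, which also carries Cd37. Each stretch runs from 250 bases before to 50 bases after the annotated start, on the gene's own strand, from RefSeq on GRCm38.p6. They lie at chr7:43407989-43408288 (plus strand) for Siglecg, chr7:30878979-30879278 (minus strand) for Cd22 and chr7:3720333-3720632 (minus strand) for Pirb. Capitals mark AGGAAGT, the core bound by ETS factors such as PU.1, searched on both strands.
Siglecg: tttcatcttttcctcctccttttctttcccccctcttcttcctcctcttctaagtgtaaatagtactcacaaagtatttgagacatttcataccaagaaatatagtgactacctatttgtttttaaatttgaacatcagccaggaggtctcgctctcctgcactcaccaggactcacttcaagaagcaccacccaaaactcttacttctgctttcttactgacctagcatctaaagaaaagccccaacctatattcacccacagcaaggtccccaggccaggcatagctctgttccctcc
Cd22: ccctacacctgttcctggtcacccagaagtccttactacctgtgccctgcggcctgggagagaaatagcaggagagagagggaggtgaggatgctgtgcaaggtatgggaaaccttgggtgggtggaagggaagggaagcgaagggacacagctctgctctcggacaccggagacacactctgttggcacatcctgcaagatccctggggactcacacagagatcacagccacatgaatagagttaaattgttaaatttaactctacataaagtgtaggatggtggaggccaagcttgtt
Pirb: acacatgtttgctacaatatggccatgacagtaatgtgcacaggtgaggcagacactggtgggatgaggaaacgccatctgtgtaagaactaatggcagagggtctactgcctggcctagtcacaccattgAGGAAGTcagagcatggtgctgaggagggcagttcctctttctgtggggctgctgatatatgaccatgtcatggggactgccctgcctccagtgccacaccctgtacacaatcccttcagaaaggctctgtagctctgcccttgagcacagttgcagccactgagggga
Among these 3 stretches the motif stands once, in that of Pirb, beginning at -119 from its start. Siglecg has a further start, 41 bases downstream, whose stretch also holds no match. Over the 12 start sites of the 10 genes, 5 genes held a match, namely Pirb, Cd72, Cd5, Ptpn6 and Inpp5d, the last with 2 matches. Of 32851 such stretches in the genome, 9.35% held one. That is a share of stretches, while the count before it is of genes, and no excess is read from them. The octamer ATGCAAAT, bound by OCT factors in B cells and searched on both strands, was found before none of the 10 genes and in 1.74% of all stretches. These are matches of letters and not measured binding.

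The labels were checked on Cd37 itself. Its log2 level was 8.15, 8.17 and 8.17 in CD37KO replicates 1, 2 and 3, against 11.99, 11.83 and 12.08 in WT replicates 1, 2 and 3. Each array matched its label, with a difference of -3.80 on the log2 scale (adjusted p = 1.37e-07 from limma). Over all probe sets the arrays correlated at 0.984 to 0.994, with medians of 6.01 to 6.10, and none was identical to another. B cell markers were above background in all 6 arrays for 8 of 8 measured genes, and their mean log2 level lay between 11.48 and 11.56 in CD37KO and between 11.50 and 11.58 in WT arrays. The background level was 5.77, under which 95% of 1015 olfactory receptor genes had their mean. Of the markers of other cells, 12 of 14 measured macrophage and monocyte genes were above it in every array, as were 6 of 13 neutrophil, 3 of 8 T cell, 4 of 8 dendritic cell, 2 of 6 NK cell and 0 of 3 erythroid genes. Below it in all 6 arrays were 1 macrophage, 0 neutrophil, 3 T cell, 4 dendritic cell, 2 NK cell and 1 erythroid gene. The summed level of the macrophage markers, given as their mean log2 value, was 9.35, 8.23 and 9.32 in CD37KO replicates 1, 2 and 3, against 9.19, 8.45 and 8.55 in WT replicates 1, 2 and 3. That of the neutrophil markers was 7.96, 6.56 and 7.24 in CD37KO replicates 1, 2 and 3, against 6.25, 6.06 and 6.30 in WT replicates 1, 2 and 3. CD37KO replicates 1 and 3 and WT replicate 1 were thus high for macrophage markers, across the genotypes, while the neutrophil level was higher in every CD37KO array, with 11 of 13 markers higher at an unadjusted p under 0.05 and 0 after adjustment. In bulk RNA fewer cells of a type and less RNA per cell cannot be told apart.

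Siglecg encodes Siglec-G, a receptor for sialic acids that dampens calcium signals and is known above all for restraining B-1 cells (Entrez Gene 243958, chromosome 7). Its log2 level was 9.76, 9.75 and 9.67 in CD37KO replicates 1, 2 and 3, against 10.22, 10.26 and 10.35 in WT replicates 1, 2 and 3. Every CD37KO array lay below every WT array, and the gap between the groups was wider than the spread within either. The means were 9.73 ± 0.048 in CD37KO and 10.28 ± 0.068 in WT cells (SD, n = 3 each). CD37KO minus WT was -0.55 on the log2 scale (standard error 0.065, 95% interval -0.70 to -0.40, adjusted p = 0.0412 from limma), which is a fold of 0.684. It was the gene with the 11th lowest p of all genes and the last that passed. Because Siglecg entered the set with this result known, these values describe it and test nothing further.

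The call of Siglecg depended on the settings. The difference stayed between -0.58 and -0.51 whichever array was left out, but no such fit passed, with adjusted p-values of 0.0678 to 0.351 from limma. Ordinary least squares, which does not pool the spread over genes, gave the same difference with an adjusted p of 0.484. With the macrophage score as a covariate the difference was -0.54 (adjusted p = 0.0708 from limma), and with the neutrophil score -0.57 (adjusted p = 1.00 from limma). The neutrophil score was higher in every CD37KO array, so a fit with it can hardly separate the score from the genotype. The standard error was 0.11 with that score and 0.065 without it. Over the 6 arrays Siglecg correlated with the macrophage score at r = -0.332 and with the neutrophil score at r = -0.760, and the part of neutrophils in the Siglecg difference was not tested further.

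Cd22 encodes the other Siglec of the group, which binds sialic acids on the B cell's own surface and on neighbouring cells and is a major carrier of SHP-1 to the B cell receptor (Entrez Gene 12483, chromosome 7). It stood at log2 levels of 11.41, 11.49 and 11.57 in CD37KO replicates 1, 2 and 3, against 11.54, 11.46 and 11.62 in WT replicates 1, 2 and 3. The groups overlapped throughout. The genotypes differed by -0.053 (standard error 0.072, 95% interval -0.22 to 0.11, adjusted p = 0.886 from limma), and an interval of this width holds neither a fall of the size seen for Siglecg nor a rise of that size.

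Since both receptors recognise sialic acids on B cells, Siglecg was also set against Cd22 within each array, which removes what scales both probe sets alike. Siglecg minus Cd22 was -1.64, -1.74 and -1.89 on the log2 scale in CD37KO replicates 1, 2 and 3, against -1.32, -1.20 and -1.27 in WT replicates 1, 2 and 3. The arrays of the genotypes again did not overlap. The mean was -1.76 ± 0.13 in CD37KO and -1.26 ± 0.063 in WT cells (SD, n = 3 each), a change of -0.50 that follows from the differences of the genes given above and is no separate result. The ratio of 2 probe sets has no meaning as a ratio of RNA molecules, and only its change between the genotypes is read here.

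**Figure D1:**
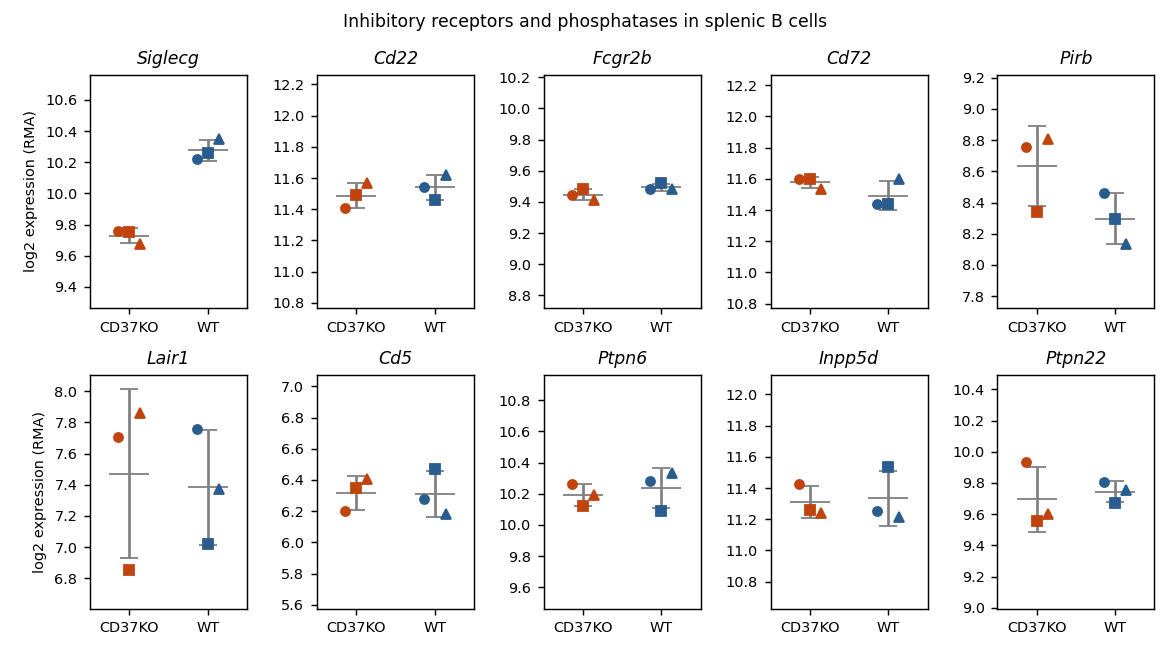
Log2 expression (RMA, vertical axis) of each of the 10 genes in the 3 CD37KO arrays (orange, left) and the 3 WT arrays (blue, right), circles, squares and triangles standing for replicates 1, 2 and 3, grey bars for mean and SD, and the same span of 1.5 log2 units in each panel. Siglecg is the gene whose groups do not overlap, at 9.67 to 9.76 in CD37KO and 10.22 to 10.35 in WT arrays, while Lair1 spreads widest within the groups.

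Siglecg and Cd22 lie on the chromosome of the deleted gene, as do Pirb and Lair1. Along that chromosome, which has 1734 measured genes, Siglecg lies 91 genes from Cd37, Cd22 157 genes, Lair1 639 genes and Pirb 641 genes, in the gene order of GRCm38.p6. Of the 11 genes that passed over the whole array, 9 are on this chromosome, Cd37 itself among them. Nnt, on chromosome 13, also passed and was higher in CD37KO cells, with a difference of 0.96 (adjusted p = 8.53e-04 from limma). Rell1, on chromosome 5, passed as well and was lower, with a difference of -0.76 (adjusted p = 0.0238 from limma). The nearest of the 4, Siglecg, is the one that passed, and Cd22 is 66 genes further out. Effects that come with the altered region of chromosome 7, of whatever kind, and those of the loss of the protein cannot be told apart in this design. The same holds for any genetic difference between the groups elsewhere in the genome, which was not examined.

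Of the 10 genes nearest to Siglecg, 5 on each side, none passed the adjustment. Their differences ran from -0.52 to 0.16, with 5 of them lower in CD37KO cells. Only 5 of the 10 were above background in every array, so the others could hardly show a fall. Nkg7, a granule membrane protein of NK and T cells, had the lowest and was the 1 neighbour at an unadjusted p under 0.05 (difference -0.52, adjusted p = 0.801 from limma). The difference was close in size to that of Siglecg but less precise, with an unadjusted p of 0.0352 beside 2.27e-05 from limma. The mean log2 level of the NK cell markers was 5.90 in WT replicate 3 and 5.50 to 5.67 in the other arrays, and the part of these cells in Nkg7 was not tested. Siglecf, a related Siglec of eosinophils and the next gene on one side, had 6.02, 6.21 and 5.99 in CD37KO replicates 1, 2 and 3, against 6.11, 6.16 and 6.03 in WT replicates 1, 2 and 3. Its difference was -0.026 (adjusted p = 0.953 from limma).

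**Figure D2:**
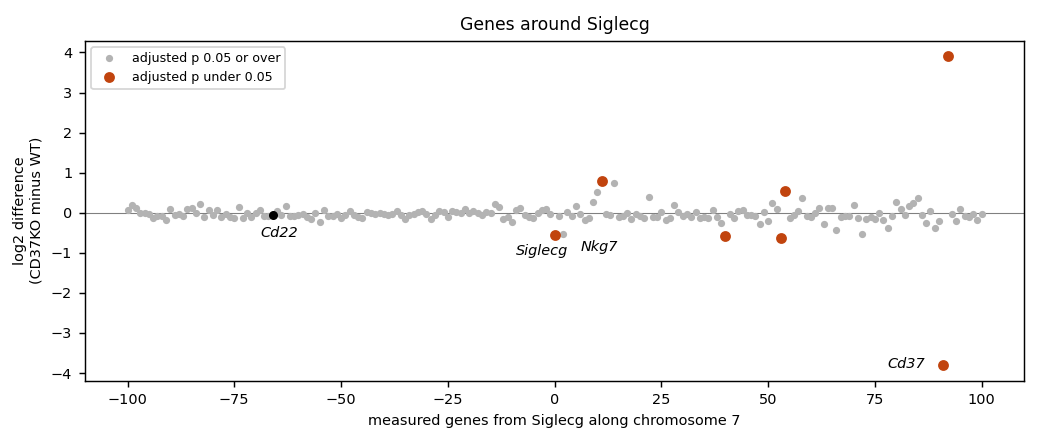
Log2 difference (CD37KO minus WT, 3 arrays each, vertical axis) of the measured genes on chromosome 7 by their position in gene order from Siglecg at 0 (horizontal axis, in genes), with genes at an adjusted p under 0.05 from limma in orange, Cd22 in black and the rest in grey. Siglecg lies at -0.55 among its 10 nearest neighbours at -0.52 to 0.16, of which 5 are above background in every array, with Cd37 91 genes to its right.

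The genes whose pattern over the 6 arrays was most like that of Siglecg were found among 9873 genes above background. They were Ttc5 on chromosome 14, a cofactor of p53 and of tubulin mRNA decay (Pearson r = 0.994), 2410002F23Rik on chromosome 7 (r = 0.991) and Cd37 itself (r = 0.987). Ttc5 had 6.67, 6.60 and 6.61 in CD37KO replicates 1, 2 and 3, against 6.95, 6.97 and 7.06 in WT replicates 1, 2 and 3. All 3 genes were lower in every CD37KO array, so that r is set largely by the gap between the genotypes.

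Pirb encodes PIR-B, an ITIM receptor for MHC class I that is present on B cells and on myeloid cells (Entrez Gene 18733, chromosome 7). Its log2 level was 8.76, 8.34 and 8.81 in CD37KO replicates 1, 2 and 3, against 8.46, 8.29 and 8.13 in WT replicates 1, 2 and 3. CD37KO replicates 1 and 3 lay above all WT arrays, while CD37KO replicate 2 lay among them. The mean was 8.63 ± 0.26 in CD37KO and 8.30 ± 0.16 in WT cells (SD, n = 3 each), a log2 difference of 0.34 (standard error 0.13, 95% interval 0.029 to 0.65, adjusted p = 0.801 from limma). Without CD37KO replicate 2 the difference was 0.49 (adjusted p = 0.179 from limma). CD37KO replicates 1 and 3 are among the 3 with high macrophage markers. Over the 6 arrays Pirb correlated with the macrophage score at r = 0.837 and with the neutrophil score at r = 0.833, scores that share their arrays with it. With the macrophage score as a covariate the difference was 0.25 (standard error 0.075, unadjusted p = 0.0110, adjusted p = 0.966 from limma). With the neutrophil score it was 0.045 (standard error 0.19, unadjusted p = 0.814 from limma). The part of these cells in the Pirb difference was not tested.

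Pirb belongs to a cluster of near-identical genes, and 2 further probe sets name it together with 5 others (Gm15448, Gm10693, Lilra6, Pira2 and Pira1). The first of these had 8.82, 8.84 and 8.98 in CD37KO replicates 1, 2 and 3, against 8.88, 8.68 and 8.72 in WT replicates 1, 2 and 3. The second had 9.40, 9.40 and 9.57 in CD37KO replicates 1, 2 and 3, against 9.49, 9.15 and 9.48 in WT replicates 1, 2 and 3. The genotypes overlapped on both, with differences of 0.12 and 0.083, smaller than that of the Pirb probe set and of the same sign. As they read several genes together, a smaller difference on them does not show whether the Pirb probe set reads Pirb alone. The gap between the probe sets was not tested, and the assignment of the Pirb probe set to Pirb alone remains uncertain.

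Most like Pirb over the 6 arrays were Ocrl, an inositol phosphatase (r = 0.994), Blvra, biliverdin reductase (r = 0.989), and Prkcsh, a subunit of glucosidase II (r = 0.987). Their differences were 0.20, 0.22 and 0.12, and none passed the adjustment, with adjusted p-values of 0.801 for Ocrl and Blvra and 0.810 for Prkcsh from limma. Ocrl had 6.99, 6.80 and 7.06 in CD37KO replicates 1, 2 and 3, against 6.84, 6.76 and 6.66 in WT replicates 1, 2 and 3.

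Lair1 encodes a receptor for collagen that is found on most leukocytes (Entrez Gene 52855, chromosome 7). It stood at log2 levels of 7.71, 6.85 and 7.86 in CD37KO replicates 1, 2 and 3, against 7.76, 7.02 and 7.37 in WT replicates 1, 2 and 3. The array that was lowest and the array that was highest were both CD37KO, so the genotype did not order the levels. The genotypes differed by 0.089 (standard error 0.27, 95% interval -0.53 to 0.71, adjusted p = 0.954 from limma), and a rise as large as the fall of Siglecg lies within this interval, while a fall of that size lies just outside it. Over the 6 arrays Lair1 correlated with the macrophage score at r = 0.960 and with the neutrophil score at r = 0.523. Its difference was -0.11 with the macrophage score and -0.59 with the neutrophil score as a covariate, and the part of macrophages in its level was not tested.

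**Figure D3:**
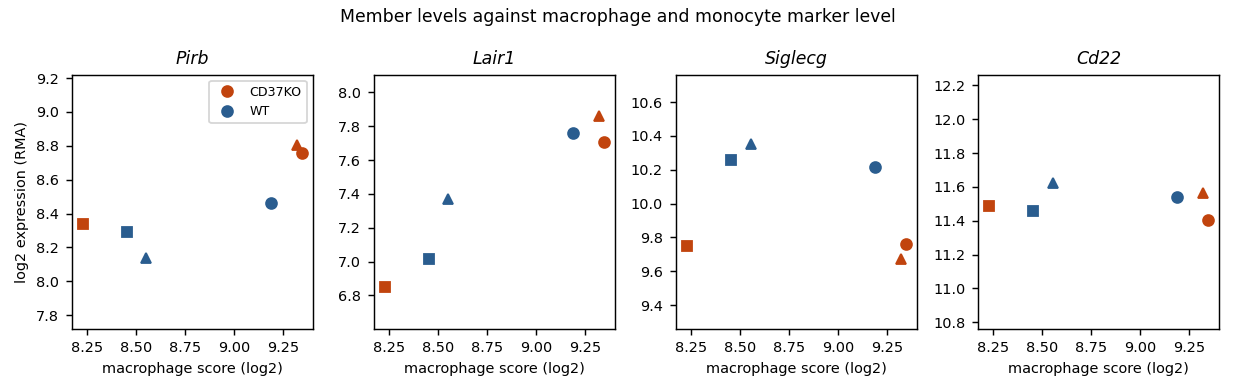
Log2 expression (RMA, vertical axes, each spanning 1.5 log2 units) of Pirb, Lair1, Siglecg and Cd22 against the macrophage score, the mean log2 level of 14 macrophage and monocyte markers (horizontal axes), in CD37KO (orange) and WT (blue) arrays with replicates 1, 2 and 3 as circle, square and triangle. Lair1 climbs with the score in both genotypes (r = 0.960 over 6 arrays), whereas the CD37KO arrays of Siglecg lie below the WT arrays at low and at high scores (r = -0.332).

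Fcgr2b encodes the inhibitory Fc receptor, which binds IgG in immune complexes and signals through SHIP-1 (Entrez Gene 14130, chromosome 1). Its log2 level was 9.44, 9.48 and 9.41 in CD37KO replicates 1, 2 and 3, against 9.48, 9.52 and 9.48 in WT replicates 1, 2 and 3. Only CD37KO replicate 2 reached the WT range, and the whole set of arrays spanned little, with an SD of 0.037 over all 6, the smallest of the 10 genes. CD37KO minus WT was -0.047 (standard error 0.058, 95% interval -0.18 to 0.085, adjusted p = 0.875 from limma). Fcgr2b ran against both scores, with r = -0.741 for the macrophage and r = -0.800 for the neutrophil score over the 6 arrays.

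Cd72 encodes a lectin-like coreceptor that binds semaphorin CD100 and docks SHP-1 (Entrez Gene 12517, chromosome 4). It stood at log2 levels of 11.60, 11.60 and 11.54 in CD37KO replicates 1, 2 and 3, against 11.44, 11.44 and 11.60 in WT replicates 1, 2 and 3. WT replicate 3 was as high as the highest CD37KO arrays, and the groups overlapped. The genotypes differed by 0.087 (standard error 0.068, 95% interval -0.070 to 0.24, adjusted p = 0.828 from limma).

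Cd5 encodes a scavenger receptor family member that marks B-1a cells and T cells and restrains antigen receptor signals (Entrez Gene 12507, chromosome 19). The Cd5 probe set read 6.20, 6.35 and 6.41 in CD37KO replicates 1, 2 and 3, against 6.28, 6.47 and 6.18 in WT replicates 1, 2 and 3. All 6 arrays were close to the background level, and the genotypes were mixed. CD37KO minus WT was 0.0097 (standard error 0.092, 95% interval -0.20 to 0.22, adjusted p = 0.985 from limma). In a list of 7 B-1 and plasma cell genes, 1 was at an unadjusted p under 0.05, the B-1 cell transcription factor Bhlhe41 (difference -0.27, adjusted p = 0.801 from limma), whose groups overlapped. The median difference of that list was 0.070, beside 0.017 over the 9874 genes above background. Of the 7 genes, 5 had positive values, Jchain the highest with 0.47 (adjusted p = 0.801 from limma). Cells carrying CD43, the product of Spn on this list, were removed in the isolation, which limits what the list can show.

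None of the phosphatases passed the adjusted or the unadjusted threshold in the fit without covariates. Ptpn6, encoding SHP-1 (Entrez Gene 15170, chromosome 6), had a log2 level of 10.26, 10.12 and 10.19 in CD37KO replicates 1, 2 and 3, against 10.28, 10.09 and 10.34 in WT replicates 1, 2 and 3. The CD37KO arrays all lay within the range of the WT arrays. The genotypes differed by -0.046 (standard error 0.081, 95% interval -0.23 to 0.14, adjusted p = 0.910 from limma).

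Inpp5d, encoding SHIP-1, which breaks down the lipid messenger PIP3 (Entrez Gene 16331, chromosome 1), had a log2 level of 11.43, 11.26 and 11.24 in CD37KO replicates 1, 2 and 3, against 11.25, 11.53 and 11.22 in WT replicates 1, 2 and 3. A single array in each genotype stood above the others. CD37KO minus WT was -0.025 (standard error 0.098, 95% interval -0.25 to 0.20, adjusted p = 0.963 from limma).

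Ptpn22, encoding PEP, a phosphatase of Src and Syk family kinases that pairs with the kinase Csk (Entrez Gene 19260, chromosome 3), had a log2 level of 9.93, 9.55 and 9.60 in CD37KO replicates 1, 2 and 3, against 9.80, 9.67 and 9.76 in WT replicates 1, 2 and 3. CD37KO replicate 1 was the highest array and the other CD37KO arrays the lowest. The genotypes differed by -0.050 (standard error 0.10, 95% interval -0.29 to 0.19, adjusted p = 0.927 from limma). With the neutrophil score as a covariate, added after the data were seen, the difference of Ptpn22 was -0.34 (unadjusted p = 0.0189, adjusted p = 1.00 from limma), that of Ptpn6 -0.18 and that of Inpp5d -0.10. As that score was higher in every CD37KO array, such a fit can hardly separate it from the genotype. Without the covariate, for none of the 3 phosphatases did the 95% interval reach the size of the Siglecg difference.

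**Figure D4:**
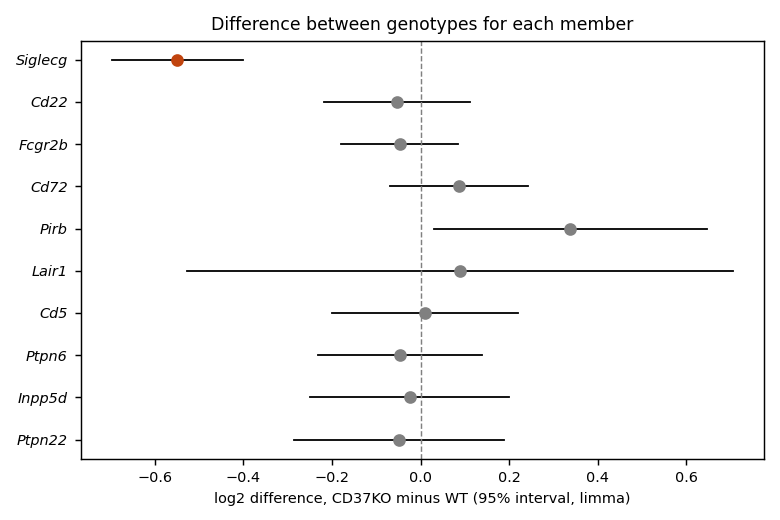
Log2 difference (CD37KO minus WT, horizontal axis) of each of the 10 genes with its 95% interval from limma over 3 arrays per genotype, in orange where the adjusted p is under 0.05. Siglecg at -0.55 stands apart with an interval of -0.70 to -0.40, Pirb at 0.34 is the other gene whose interval leaves out 0, and Lair1 has the widest interval.

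Of the 10, 6 had a negative and 4 a positive difference. The median was -0.036, or -0.025 without Siglecg, beside -0.019 over all genes and 0.017 over the 9874 genes above background. All 10 were above background in every array, and 9 of them still were with a stricter background, over which 1% of the olfactory receptor genes lay, where Cd5 was the exception.

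The genes varied among arrays by different amounts. The SD over all 6 arrays had a median of 0.12 over the 10 genes, beside 0.097 over all genes and 0.106 over the 9874 genes above background. Of the 10, 7 exceeded the median of all genes, though Ptpn6 among them, at 0.0967, lay below that of genes above background. The SD was 0.42 for Lair1, 0.31 for Siglecg and 0.27 for Pirb, which lie at the 98.9th, 97.6th and 96.7th percentile of all genes. Lair1 and Pirb varied together over the 6 arrays (r = 0.698), and Siglecg went with Fcgr2b (r = 0.729) and against Pirb (r = -0.763). Such correlations share the same 6 arrays and are given as a description.

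Genes around these receptors and phosphatases were examined in 5 lists with 100 genes, of which 94 were measured and 82 were above background in all arrays. None passed the adjustment over all genes, with a lowest adjusted p of 0.801 from limma. Without adjustment 8 were higher and 3 lower at p under 0.05, which is 11.7% of those measured, beside 5.95% of all genes. The same background stands behind the counts of each list, whose genes were gathered with earlier results known. As the neutrophil score was higher in every CD37KO array, a gene picked for a difference between the genotypes tends to correlate with it. The r of such a gene with that score therefore cannot separate neutrophils from the genotype.

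Among 26 other inhibitory and Siglec family receptors, 2 were higher and 1 was lower at that threshold, and the median difference was 0.059. Lilrb4a, an ITIM receptor of myeloid and some lymphoid cells, had 9.54, 8.85 and 9.51 in CD37KO replicates 1, 2 and 3, against 8.75, 8.77 and 8.83 in WT replicates 1, 2 and 3. All CD37KO arrays were above the WT arrays, CD37KO replicate 2 by little. Its difference was 0.52 (adjusted p = 0.801 from limma). Over the 6 arrays it correlated with the neutrophil score at r = 0.945 and with the macrophage score at r = 0.710, and the part of these cells was not tested. Siglech, a receptor of plasmacytoid dendritic cells, had 5.77, 5.82 and 5.94 in CD37KO replicates 1, 2 and 3, against 6.00, 6.28 and 6.11 in WT replicates 1, 2 and 3. Its levels were close to background and its difference was -0.28 (adjusted p = 0.801 from limma). Its r was -0.744 to the neutrophil score and -0.371 to the macrophage score.

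Of 17 other phosphatases measured, 3 were higher and 0 lower at an unadjusted p under 0.05, with a median difference of -0.015. Inppl1, encoding SHIP2, the relative of SHIP-1, had 7.32, 7.16 and 7.49 in CD37KO replicates 1, 2 and 3, against 7.12, 6.91 and 7.08 in WT replicates 1, 2 and 3. Its groups did not overlap and its difference was 0.29 (adjusted p = 0.801 from limma). Its r was 0.798 to the neutrophil score and 0.689 to the macrophage score, and the part of these cells was not tested. Ptpn11, encoding SHP-2, the relative of SHP-1, had a difference of 0.090 (adjusted p = 0.822 from limma). It was chosen after its values were seen, as the counterpart of Inppl1.

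Of 20 adaptors and kinases of inhibition measured, 2 were higher and 0 lower at an unadjusted p under 0.05, with a median of -0.011. The larger rise was that of Lime1, a membrane adaptor that binds Lyn and Csk (difference 0.23, adjusted p = 0.801 from limma). Its r was 0.698 to the neutrophil score and 0.373 to the macrophage score. Lyn itself had no probe set of its own in the annotation used and was not analysed here.

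The list of ligands and sialic acid enzymes, with 16 measured, had 1 gene higher and 1 lower at an unadjusted p under 0.05 and a median of 0.019. B2m, the light chain of the MHC class I molecules that Pirb binds, had 13.33, 13.23 and 13.34 in CD37KO replicates 1, 2 and 3, against 13.17, 13.13 and 13.11 in WT replicates 1, 2 and 3. St3gal1, a sialyltransferase of O-glycans, had 10.42, 10.37 and 10.24 in CD37KO replicates 1, 2 and 3, against 10.56, 10.55 and 10.61 in WT replicates 1, 2 and 3. Neither gene's groups overlapped, with differences of 0.16 for B2m and -0.23 for St3gal1 (adjusted p = 0.801 for both from limma). With the neutrophil score B2m correlated at r = 0.904 and St3gal1 at r = -0.619. With the macrophage score B2m correlated at r = 0.646 and St3gal1 at r = -0.331, and the part of these cells in either gene was not tested.

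The 15 measured activating components of the B cell receptor had a median difference of -0.012, with 0 higher and 1 lower at an unadjusted p under 0.05. That gene was Btk, the kinase activated through the lipid that SHIP-1 removes. It had 10.18, 10.19 and 10.09 in CD37KO replicates 1, 2 and 3, against 10.34, 10.53 and 10.29 in WT replicates 1, 2 and 3. Its groups did not overlap, and its difference was -0.23 (adjusted p = 0.801 from limma). Its r was -0.721 to the neutrophil score and -0.435 to the macrophage score, and the part of these cells was not tested.

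**Figure D5:**
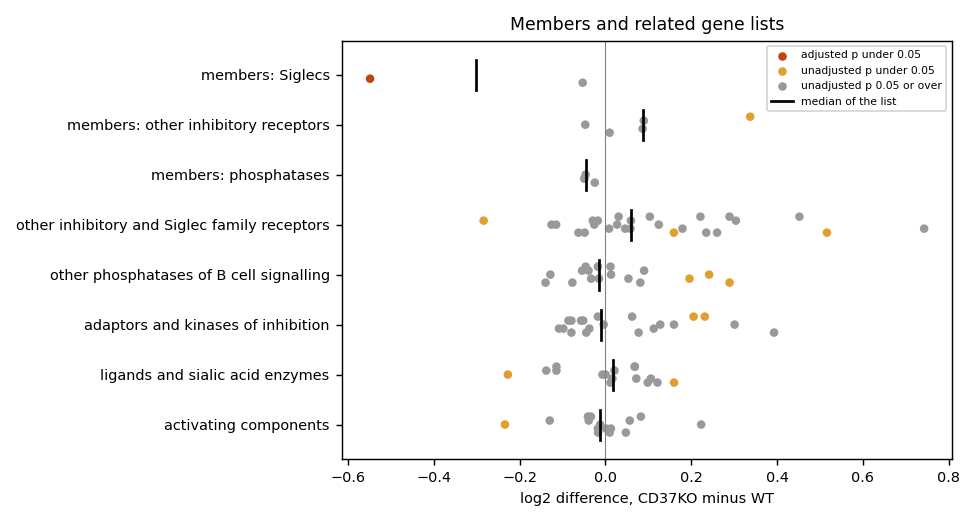
Log2 difference (CD37KO minus WT, 3 arrays each, horizontal axis) of each gene in the 3 groups of the 10 genes and in 5 lists around them, 1 point per gene, orange-red at an adjusted p under 0.05, yellow at an unadjusted p under 0.05 and grey otherwise (limma), with the list's median as a black bar. Siglecg at -0.55 is the lowest point of all lists, and the medians of the 5 lists lie between -0.015 and 0.059.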

How the data were processed

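RNA of splenic B cells of 3 CD37KO and 3 WT mice was hybridised to 1 array per mouse. The authors deposited log2 values per probe set. RMA is named in the submitters' processing notes, a background correction with quantile normalization and a summary per probe set, as is the build mm8. For the RMA software the sources used here give no name. Low signals are compressed by RMA, which understates differences of dim genes. Raw scans were not used here.

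Of 35361 probe sets, 21780 name 1 gene and gave 19935 genes, each by its brightest probe set. Each of the 10 genes has 1 such probe set, so this rule made no choice among them. Gene names and order came from RefSeq (GRCm38.p6), and promoters of all 10 genes were matched by symbol. The genotypes were compared by limma's lmFit and eBayes (limma 3.58.1, R 4.3.3) with two-sided p-values, adjusted by Benjamini-Hochberg across the 19935 genes at a threshold of 0.05, and the code was tested on simulated data. The study's methods state no test for these arrays. The few arrays limit the precision, and an exact permutation test of 3 against 3 cannot go below p = 0.10.

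The 10 genes and all lists were chosen with earlier results of these data known. Named besides are Cd37, the largest rise and fall of each related list among genes above background at an unadjusted p under 0.05, and the 3 genes most correlated with Siglecg and with Pirb; all other genes, such as Nkg7, Siglecf, Bhlhe41, Jchain, Ptpn11, Cd33, Milr1, Pilra, Sirpa, Siglece, Fcrl1, Fcrl5, St6gal1 and Cmah, were chosen after their values were seen. Alternatives were a second quantile normalization, centring of arrays on their medians, averaging probe sets of a gene, a fit of genes above background alone, ordinary least squares, eBayes with trend and robust, a fit with array weights, a replicate block, other background levels and leaving out each array. The macrophage and neutrophil scores as covariates and the correlations of related genes with the scores were added after seeing the data. The numbers of the replicates do not pair the mice by the labels.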

Additional observations from a re-analysis of the deposited data

How the results depend on the processing

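Siglecg kept its direction under all 16 alternatives and passed the adjustment under 6 of them. It no longer passed with ordinary least squares (-0.55, adjusted p = 0.484), with the replicate block (-0.55, adjusted p = 0.219 from limma), with the macrophage score as a covariate (-0.54) or with the neutrophil score (-0.57), nor without any single array (-0.58 to -0.51), and its adjusted p ran from 0.0133 to 1.00. Members of the set that passed were thus 0 with ordinary least squares, the replicate block and either score, and 0 to 0 when 1 array was left out. At an unadjusted p under 0.05 there was 1 with ordinary least squares and 1 to 2 when 1 array was left out. Over all genes, 11 passed, and this became 3 with ordinary least squares, 19 with array weights, 4 with the replicate block, 2 with the neutrophil score and 4 to 14 when 1 array was left out. Same-numbered arrays deviated from their group means with correlations of 0.24, 0.0068 and -0.14, beside -0.37 to 0.31 for arrays of unlike number. With 3 arrays per group these values cannot settle whether the numbers pair the mice. The sign of small differences turned for Lair1 with array weights (-0.034), the macrophage score (-0.11) and the neutrophil score (-0.59), for Cd5 with another quantile normalization (-0.017) and for Inpp5d with array weights (0.045). Leaving out 1 array gave -0.10 to 0.40 for Lair1, -0.055 to 0.090 for Cd5, -0.084 to 0.076 for Inpp5d, -0.17 to 0.021 for Ptpn22 and -0.12 to 0.0030 for Ptpn6. The neutrophil score, which was higher in every CD37KO array, moved Ptpn22 to -0.34 (unadjusted p = 0.0189 from limma), Ptpn6 to -0.18, Inpp5d to -0.10 and Cd5 to 0.16. Pirb kept its sign throughout (0.045 to 0.49), as did Cd22, Fcgr2b and Cd72. The cause of these changes was not tested. No count of molecules underlies the arrays, and signal close to background limits Cd5.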

Other observations

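Part of the other inhibitory receptors varied over the 6 arrays with the macrophage score. Of the 20 other inhibitory and Siglec family receptors above background, 9 had r over 0.8 with that score, 45.0% of them, beside 7.45% of all 9874 genes above background and 2 of the 10 inhibitory receptors and phosphatases, Pirb and Lair1. Lilrb4a (r = 0.710), Cd33 (r = 0.762) and Milr1 (r = 0.557), which myeloid cells also carry, fell short of that value, and Siglecf ran the other way (r = -0.729). These comparisons were added after the data were seen. Pilra, an ITIM receptor of myeloid cells, followed the score most closely (r = 0.999), with 9.79, 8.20 and 9.75 in CD37KO replicates 1, 2 and 3, against 9.57, 8.57 and 8.73 in WT replicates 1, 2 and 3. Sirpa, the receptor for CD47 (r = 0.950), had 10.12, 9.13 and 10.37 in CD37KO replicates 1, 2 and 3, against 9.76, 9.23 and 9.28 in WT replicates 1, 2 and 3. Siglece, a Siglec of neutrophils and macrophages (r = 0.904), had 9.31, 8.34 and 9.61 in CD37KO replicates 1, 2 and 3, against 9.08, 7.78 and 8.16 in WT replicates 1, 2 and 3. In all 3 genes CD37KO replicates 1 and 3 and WT replicate 1 were the highest arrays, and none passed an unadjusted p under 0.05 from limma. Of receptors found on B cells, Fcrl1 and Fcrl5 ran the other way (r = -0.506 and -0.566) and had differences of -0.048 and 0.046. Btla, also found on B cells, went with the macrophage score (r = 0.640) and more closely with the neutrophil score (r = 0.929). The groups of Btla did not overlap, with a difference of 0.16 (adjusted p = 0.801 from limma).

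Neither of a pair of enzymes that shape the ligands of Cd22 passed the test. St6gal1, which makes the sialic acid linkage that CD22 binds, had a difference of 0.098 (adjusted p = 0.801 from limma). Its groups did not overlap, all CD37KO arrays being higher. It correlated with the neutrophil score at r = 0.804 and with the macrophage score at r = 0.104, and the part of these cells was not tested. Cmah, which makes the form of sialic acid that mouse CD22 prefers, had a difference of -0.0072 (adjusted p = 0.985 from limma).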
